A study of Homo sapiens with 18 samples.

Results

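The genes described here are 10 aldehyde dehydrogenases outside the ALDH1A group: ALDH1B1, ALDH2, ALDH3A1, ALDH3A2, ALDH3B1, ALDH3B2, ALDH4A1, ALDH7A1, ALDH9A1 and ALDH18A1. They were taken by gene name from the 19901 rows of the count table, each name matching 1 row, and all 10 were among the 15475 genes with enough reads to be tested. Their mRNA was measured by stranded mRNA sequencing in 3 established cell lines of head and neck squamous cell carcinoma (HNSCC). Detroit 562 comes from a metastatic site of a pharyngeal tumor, FaDu from the hypopharynx and SCC-9 from the tongue. Each line was left untreated (control) or received 50 ng/mL of hepatocyte growth factor (HGF), the ligand of the receptor tyrosine kinase MET, with 3 libraries in each of the 6 groups. The sample records give 16 h of treatment, while the series record gives 48 h. No group carries a genetic change made for the study, and each tumor site is represented by 1 line. SCC-9 was grown in another medium, with hydrocortisone, so line and medium cannot be told apart wherever SCC-9 is compared with the others.

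Aldehyde dehydrogenases oxidize aldehydes to carboxylic acids with NAD or NADP as cofactor. Their substrates come from alcohol, from oxidized membrane lipids and from the breakdown of amino acids, and several members of the family are used as markers of stem-like tumor cells. ALDH2 and ALDH1B1 are mitochondrial enzymes that oxidize acetaldehyde. ALDH18A1 makes pyrroline-5-carboxylate from glutamate, the entry into proline synthesis, and ALDH4A1 runs the opposite way, from pyrroline-5-carboxylate to glutamate. ALDH7A1 acts in lysine breakdown and ALDH9A1 in the synthesis of carnitine. ALDH3A1 oxidizes aromatic and medium-chain aldehydes, ALDH3A2 is the fatty aldehyde dehydrogenase of the endoplasmic reticulum, and ALDH3B1 and its close relative ALDH3B2 act on aldehydes derived from lipids.

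On GRCh38, the genome build of the files, the members lie on 7 chromosomes. ALDH1B1 spans chr9:38392664-38398661, ALDH18A1 chr10:95605929-95656706, ALDH2 chr12:111766887-111817529 and ALDH7A1 chr5:126531200-126595418. ALDH4A1 (chr1:18871430-18902781) and ALDH9A1 (chr1:165662216-165698863) are on opposite arms of chromosome 1. The ALDH3 genes form neighbouring pairs. ALDH3A2 (chr17:19648136-19677598) and ALDH3A1 (chr17:19737984-19748943) are 60.4 kb apart and transcribed in opposite directions, with SLC47A2 as the 1 row of the table between them. ALDH3B2 (chr11:67662162-67681200) and ALDH3B1 (chr11:68008578-68029282) are 327.4 kb apart, also on opposite strands, with UNC93B1 between them.

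A library held between 35304770 and 44003970 counts on genes, with a median of 40138919. Levels are given as CPM, counts scaled to the size and composition of each library, and a level was compared between genes only after division by length. The authors counted a read for every gene whose whole extent it overlapped on the right strand, so introns and overlapping genes enter the counts. The extent of ALDH4A1 lies wholly inside another row of the table on the same strand, RP13-279N23.2, which held 2.9 to 9.67 times its counts. A further row, RP11-162P23.2, covers 48.4% of ALDH2, with 0.427 to 2.44 times its counts, and reads there may belong to either gene. No other member overlapped a row on its own strand. Of the 75-base stretches in the annotated transcripts, ALDH2 shared the most with other genes, 6.73%, mainly with a gene that overlaps it on its strand. ALDH9A1 shared 0.966%, ALDH7A1 0.711%, with the pseudogene ALDH7A1P1, and ALDH3A2 0.259%. ALDH3B1, ALDH3B2, ALDH3A1, ALDH1B1, ALDH4A1 and ALDH18A1 shared none.

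Epithelial markers were high in all 3 lines, although KRT14, a keratin of basal squamous cells, reached no more than 1.43 CPM in Detroit 562. Leukocyte markers were all below 1 CPM in every library. The summed level of 6 fibroblast markers was 29.8 to 54.3 CPM in Detroit 562 controls and 15.0 to 27.6 CPM with HGF, almost wholly from COL1A1 and COL1A2. PDGFRB stayed at 0 there, and DCN, COL3A1 and LUM stayed below 0.1 CPM. The summed level of the 7 squamous markers was 3040 to 4450 CPM in the Detroit 562 controls and 2050 to 3320 CPM with HGF, and KRT5, another basal keratin, went from 1490 to 2580 CPM to 593 to 1480 CPM. In FaDu the squamous sum was 7080 to 10900 CPM and 4550 to 9460 CPM, and in SCC-9 it was 7650 to 9790 CPM and 7710 to 9330 CPM. Fibroblast markers summed to 3.41 to 6.79 CPM over the FaDu libraries and 60.4 to 99.4 CPM over those of SCC-9, and 3 endothelial markers to 0.487 to 8.33 CPM over all libraries. The part of these markers in the results was not tested. Libraries with replicate number 3 stood apart for the aldehyde dehydrogenases of 2 lines. In Detroit 562, 8 of the 10 members had their lowest control level in replicate 3, where 41.5% of all genes tested did, and 9 of 10 did so with HGF (39.1% of all genes). In FaDu the numbers were 8 of 10 in control (37.6%) and 9 of 10 with HGF (34.6%). In SCC-9 they were 3 of 10 (34.1%) and 1 of 10 (29.8%).

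**Figure D1:**
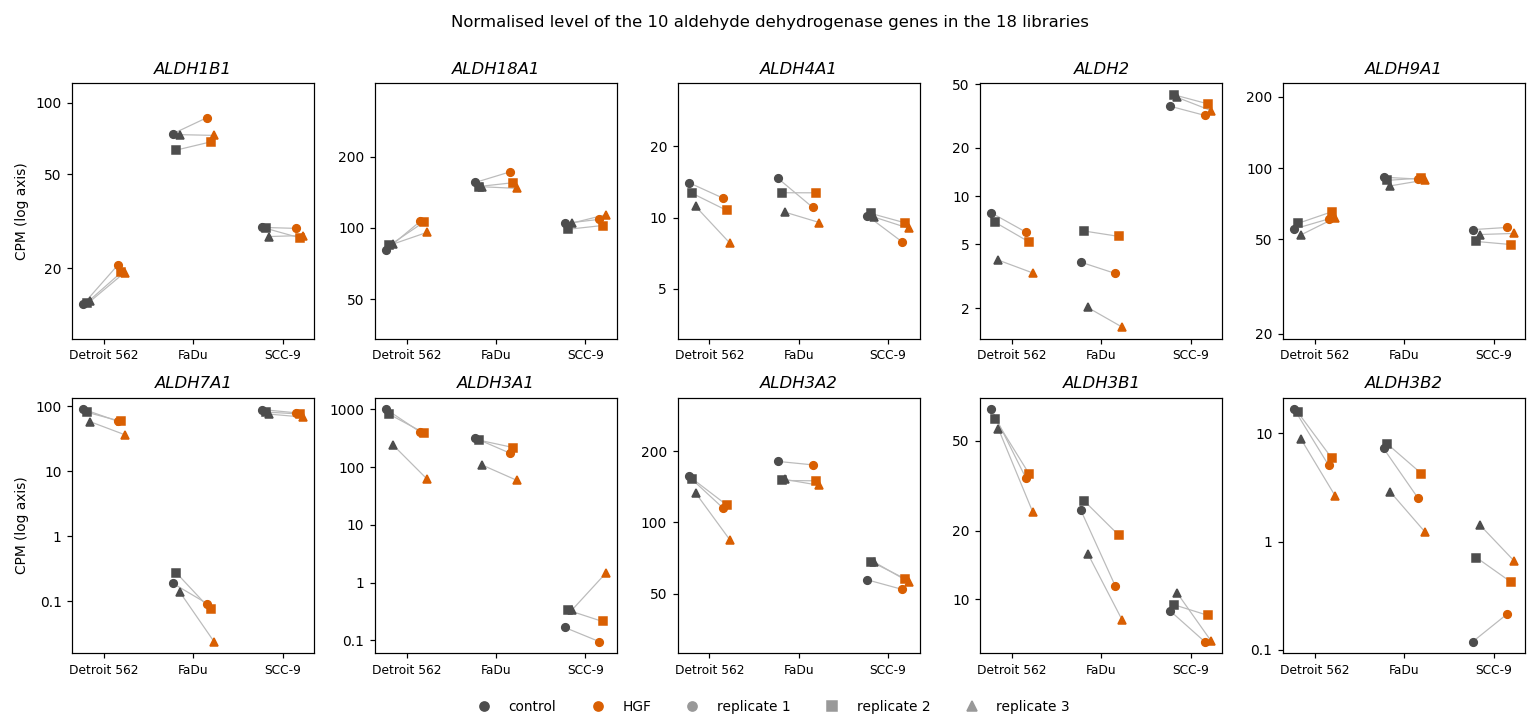
Normalised level of each member in all 18 libraries, in CPM on log axes that differ between panels. Grey symbols are control and orange symbols HGF, the shape gives the replicate number, and lines join same-numbered libraries. ALDH7A1 is near the bottom of its axis in FaDu and ALDH3A1 in SCC-9, and replicate 3 is the lowest of its group for ALDH3A1 in Detroit 562 and FaDu.

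The first comparison was between the untreated lines. ALDH7A1 was nearly silent in FaDu, 374-fold below Detroit 562, and ALDH3A1 was nearly silent in SCC-9, 2460-fold below Detroit 562. ALDH2 was several times higher in SCC-9 than elsewhere. A gene counted as called where edgeR's quasi-likelihood test gave an adjusted p under 0.1 and the log2 difference was 0.4 or larger in size. By this rule 7 of the 10 members differed between Detroit 562 and FaDu, where 61.0% of all genes tested did. Between Detroit 562 and SCC-9 there were 6 (65.4% of all genes) and between FaDu and SCC-9 there were 9 (64.2%). These counts are near the background of all genes for Detroit 562 against either line, and 9 of 10 lies above it for FaDu against SCC-9.

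By the mean of the 3 control libraries, ALDH3A1 was the most abundant of the 10 per length in Detroit 562 and FaDu. Its control levels were 1003.6, 815.5 and 241.9 CPM in Detroit 562, 315.5, 292.4 and 108.2 CPM in FaDu, and 0.167, 0.333 and 0.331 CPM in SCC-9. The 3 SCC-9 libraries lay below all others, and the lowest Detroit 562 library lay below the upper pair of FaDu. Detroit 562 exceeded SCC-9 by 11.26 on the log2 scale (SE 1.13, adjusted p = 9.5e-08) and FaDu exceeded SCC-9 by 9.74 (SE 1.10, adjusted p = 4.6e-07). The excess of Detroit 562 over FaDu was 1.53 (SE 0.651, adjusted p = 0.0449), with overlapping groups. That call was lost when Detroit 562 control replicate 1, Detroit 562 control replicate 2 or FaDu control replicate 3 was left out, with log2 differences of 1.15, 1.38 and 1.18 and adjusted p of 0.158, 0.102 and 0.149. The range of the 3 Detroit 562 controls was wider for ALDH3A1 than for 99.6% of all genes tested.

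The other members of the ALDH3 group followed the order Detroit 562, FaDu, SCC-9, except ALDH3A2. ALDH3B1 had control levels of 68.7, 62.5 and 56.4 CPM in Detroit 562, 24.7, 27.1 and 15.9 CPM in FaDu and 8.90, 9.48 and 10.7 CPM in SCC-9, with no overlap. It was 1.47 higher in Detroit 562 than in FaDu (log2, SE 0.244, adjusted p = 4.06e-05) and 1.22 higher in FaDu than in SCC-9 (SE 0.252, adjusted p = 0.000335). ALDH3B2 had 16.7, 15.7 and 8.81 CPM in Detroit 562, 7.24, 8.01 and 2.86 CPM in FaDu and 0.120, 0.713 and 1.43 CPM in SCC-9. Its excess in Detroit 562 over FaDu was 1.19 (SE 0.496, adjusted p = 0.0411), which lost its call without Detroit 562 control replicate 1 or 2 or FaDu control replicate 3 (1.02, 1.08 and 0.85) and in DESeq2 (1.20, adjusted p = 0.12). ALDH3A2 had 133.0 to 156.3 CPM in Detroit 562 and 150.3 to 180.8 CPM in FaDu, a difference of -0.13 (SE 0.121, adjusted p = 0.358). Both exceeded the 57.1 to 68.3 CPM of SCC-9, by 1.19 (SE 0.123) and 1.32 (SE 0.123).

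ALDH7A1 split the lines in another way. Its control counts per library were 2146 to 3819 in Detroit 562 and 2972 to 3716 in SCC-9, and 6 to 11 in FaDu. The levels were 90.0, 80.9 and 57.8 CPM in Detroit 562 and 88.9, 81.4 and 75.7 CPM in SCC-9, which overlapped and differed by -0.10 (log2, SE 0.165, adjusted p = 0.574). In FaDu they were 0.190, 0.276 and 0.141 CPM, with 8.55 for Detroit 562 minus FaDu and -8.65 for FaDu minus SCC-9 on the log2 scale (SE 0.287 in both, adjusted p = 1.97e-13 and 1.25e-13).

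The mitochondrial acetaldehyde enzymes were highest in different lines. ALDH2 was highest in SCC-9, with 36.4, 42.9 and 41.3 CPM against 7.85, 6.87 and 3.99 CPM in Detroit 562 and 3.87, 6.05 and 2.02 CPM in FaDu. On the log2 scale it differed from SCC-9 by -2.68 in Detroit 562 (SE 0.369, adjusted p = 4.42e-06) and by -3.34 in FaDu (SE 0.383, adjusted p = 5.59e-07). Detroit 562 and FaDu overlapped and differed by 0.66 (SE 0.382, adjusted p = 0.133). With a term for the replicate number within each line, edgeR's test gave 0.75 (SE 0.0845, adjusted p = 9.01e-07), which passed the thresholds. That term takes the spread between cultures of a line out of the error, so this p-value cannot support a difference between lines. Without that term ALDH2 passed when Detroit 562 control replicate 3 (0.89, adjusted p = 0.0549), FaDu control replicate 2 (1.09, adjusted p = 0.0277), or FaDu HGF replicate 2 or 3 (0.66 in both, adjusted p = 0.0892 and 0.0762) was left out, with adjusted p of 0.0277 to 0.437 over the 18 fits. ALDH1B1 was highest in FaDu, with 74.0, 63.1 and 73.4 CPM, then SCC-9 with 29.8, 29.5 and 27.2 CPM and Detroit 562 with 14.1, 14.3 and 14.5 CPM. Its groups did not overlap, with 1.28 for FaDu minus SCC-9 (SE 0.0853, adjusted p = 5.73e-10) and -1.01 for Detroit 562 minus SCC-9 (SE 0.0875, adjusted p = 1.56e-08).

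The remaining members varied less between lines. ALDH18A1 had 80.9 to 85.5 CPM in Detroit 562, 98.8 to 104.8 CPM in SCC-9 and 149.3 to 155.8 CPM in FaDu. Detroit 562 minus FaDu was -0.86 (log2, SE 0.0663) and FaDu minus SCC-9 was 0.56 (SE 0.066), while the -0.30 of Detroit 562 minus SCC-9 (SE 0.0661, adjusted p = 0.000638) was below the minimum fold change. ALDH9A1 was highest in FaDu, with -0.67 for Detroit 562 minus FaDu (SE 0.0689) and 0.76 for FaDu minus SCC-9 (SE 0.069), and it differed by 0.09 between Detroit 562 and SCC-9 (SE 0.0689, adjusted p = 0.268). ALDH4A1 had means of 12.6, 12.6 and 10.2 CPM in Detroit 562, FaDu and SCC-9, and none of its differences was called. Without FaDu control replicate 3 the excess of FaDu over SCC-9 passed (0.42, adjusted p = 0.0291).

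Levels were set beside each other between genes as CPM per kilobase of annotated exons (mean ± SD, n = 3). In Detroit 562 controls ALDH3A1 stood at 177.2 ± 102.0 and made up 69.7% of the summed level of the 10 genes, followed by ALDH18A1 at 22.3 ± 0.648 and ALDH9A1 at 18.4 ± 1.01. In FaDu it stood at 61.6 ± 29.3, 35.5% of the sum, with ALDH18A1 at 40.4 ± 0.968, ALDH9A1 at 29.3 ± 1.24 and ALDH1B1 at 22.5 ± 1.96. In SCC-9 it held 0.0999% of the sum, and ALDH18A1 led with 27.4 ± 0.91, 38.2% of the sum, before ALDH9A1 with 17.3 ± 1.00. The exon length includes all annotated isoforms, which is long for ALDH3A2 (14.8 kb) and ALDH7A1 (17.9 kb). With the length of the canonical transcript (3.70 and 4.76 kb) ALDH3A2 came to the second place in Detroit 562 and the third in both other lines. ALDH3A1 stayed first in Detroit 562 and FaDu and ALDH18A1 in SCC-9 with that length. Per kilobase of the whole extent, over which the reads were counted, ALDH3A1 was again first in Detroit 562 and FaDu, while the order below it changed. ALDH1B1 then led in SCC-9 and came second in FaDu, and ALDH18A1 took rank 3 in SCC-9, 4 in FaDu and 5 in Detroit 562. By exon length, ALDH3A1 (108.2 CPM, 3.88 kb) lay below ALDH18A1 (149.3 CPM, 3.75 kb) in FaDu control replicate 3. With HGF in FaDu, ALDH18A1 led per kilobase of exons, at 42.2 against 38.8 for ALDH3A1. ALDH3A1 was first there by canonical length and by extent.

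**Figure D2:**
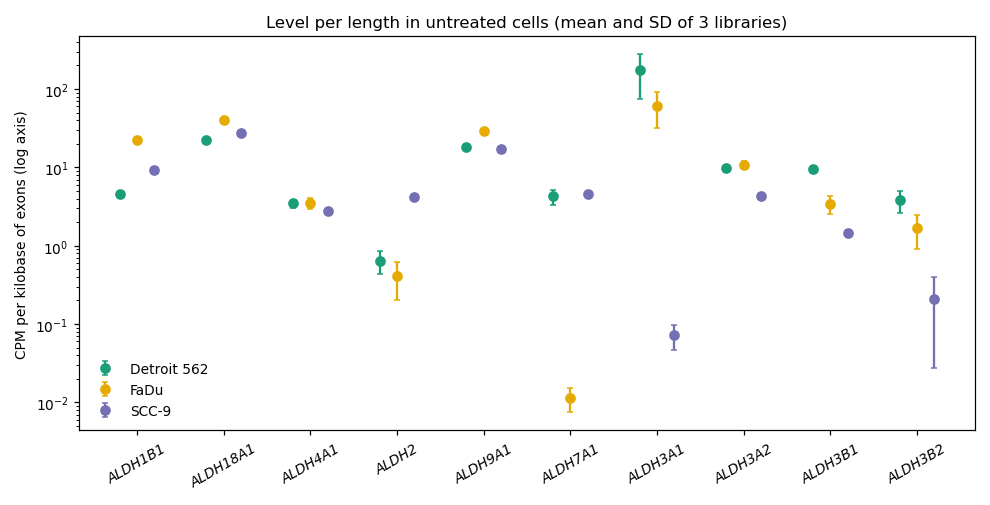
Level of each member in untreated cells, as CPM per kilobase of exons on a log axis, with points for the mean and bars for the SD of 3 libraries of each line. ALDH3A1 has the highest point in Detroit 562 (177.2) and in FaDu (61.6) and lies near 0.07 in SCC-9, and ALDH7A1 lies near 0.01 in FaDu.

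HGF was next compared with control in each line. In Detroit 562, 3 of the 4 ALDH3 genes and ALDH7A1 were called lower with HGF and ALDH1B1 higher, while ALDH3A1 was not called. ALDH3B2 fell 3.03-fold, ALDH3B1 1.99-fold, ALDH7A1 1.49-fold and ALDH3A2 1.39-fold, and ALDH1B1 rose 1.38-fold. These were 5 of the 10 members, 4 down and 1 up, where 17.9% of all genes tested were called, 11.7% down and 6.16% up. The median log2 fold change was -0.42 over the members and -0.01 over all genes tested. These are bulk libraries, in which fewer cells expressing a gene and less RNA per cell cannot be told apart.

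ALDH3B2 had 16.7, 15.7 and 8.81 CPM in the Detroit 562 controls and 5.07, 5.85 and 2.62 CPM with HGF. All HGF libraries were below all controls, and the log2 fold change was -1.60 (SE 0.508, adjusted p = 0.0303). ALDH3B1 went from 68.7, 62.5 and 56.4 CPM to 34.2, 35.6 and 24.3 CPM, again without overlap, with a log2 fold change of -0.99 (SE 0.241, adjusted p = 0.00825). ALDH3A2, the fatty aldehyde dehydrogenase, went from 156.3, 153.0 and 133.0 CPM to 114.8, 118.5 and 84.2 CPM, without overlap (-0.48, SE 0.121, adjusted p = 0.0104). ALDH7A1 went from 90.0, 80.9 and 57.8 CPM to 58.8, 58.3 and 36.5 CPM. There the lowest control lay just under the highest HGF library, and the log2 fold change was -0.57 (SE 0.167, adjusted p = 0.0203).

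Without a term for the replicate number, some of these calls rested on 1 library. Without Detroit 562 HGF replicate 3, the lowest for each of the 4 genes, 2 members stayed called, and ALDH3A2 (-0.34, adjusted p = 0.0485), ALDH3B2 (-1.33, adjusted p = 0.113) and ALDH7A1 (-0.38, adjusted p = 0.0839) did not. Without Detroit 562 control replicate 1, ALDH3B2 (-1.44, adjusted p = 0.118) and ALDH7A1 (-0.44, adjusted p = 0.125) were lost. In a fit of Detroit 562 alone, ALDH7A1 missed the threshold with the same fold change (adjusted p = 0.102). These fits held no term for the replicate number. With that term and all libraries, ALDH3A2 (-0.49, SE 0.0529, adjusted p = 4.62e-06), ALDH3B2 (-1.62, SE 0.129, adjusted p = 2.91e-07) and ALDH7A1 (-0.58, SE 0.05, adjusted p = 5.72e-07) were called.

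ALDH1B1 rose in Detroit 562 from 14.1, 14.3 and 14.5 CPM to 20.6, 19.2 and 19.2 CPM. The groups did not overlap, and the log2 fold change was 0.46 (SE 0.0881, adjusted p = 0.00266). ALDH18A1 went from 80.9, 84.5 and 85.5 CPM to 106.8, 105.9 and 95.9 CPM without overlap. Its log2 fold change of 0.30 (SE 0.0661, adjusted p = 0.00524) was below the minimum of 0.4, as was the 0.18 of ALDH9A1 (SE 0.0689, adjusted p = 0.0637), and so neither was called. The groups did not overlap for 6 of the 10 members in Detroit 562, against 38.2% of all genes tested.

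ALDH3A1 had 1003.6, 815.5 and 241.9 CPM in the Detroit 562 controls and 402.2, 391.3 and 61.4 CPM with HGF. The groups overlapped because control replicate 3 lay below HGF replicates 1 and 2, and the log2 fold change of -1.27 was not called (SE 0.647, adjusted p = 0.16). It was called without control replicate 3 (-1.67, adjusted p = 0.0605). Within same-numbered pairs the control exceeded HGF 2.5-fold, 2.08-fold and 3.94-fold. With a term for the replicate number the log2 fold change was -1.43 (SE 0.14, adjusted p = 1.84e-06) and ALDH3A1 was called, as the only change among the members in this line, giving 6 of 10 where 21.5% of all genes were called. ALDH2 (-0.37, SE 0.38, adjusted p = 0.508) and ALDH4A1 (-0.31, SE 0.157, adjusted p = 0.164) were lower in all 3 pairs and were not called. With the replicate term ALDH2 had -0.37 (SE 0.0818, adjusted p = 0.00192) and ALDH4A1 -0.31 (SE 0.0911, adjusted p = 0.0109). Both then missed the call only through the minimum fold change. Without that term and without Detroit 562 HGF replicate 1, ALDH4A1 passed (-0.45, adjusted p = 0.0661). In all, 7 of the 10 members were lower in all 3 same-numbered pairs, as were 32.3% of all genes tested, and the other 3 members were higher in all 3.

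**Figure D3:**
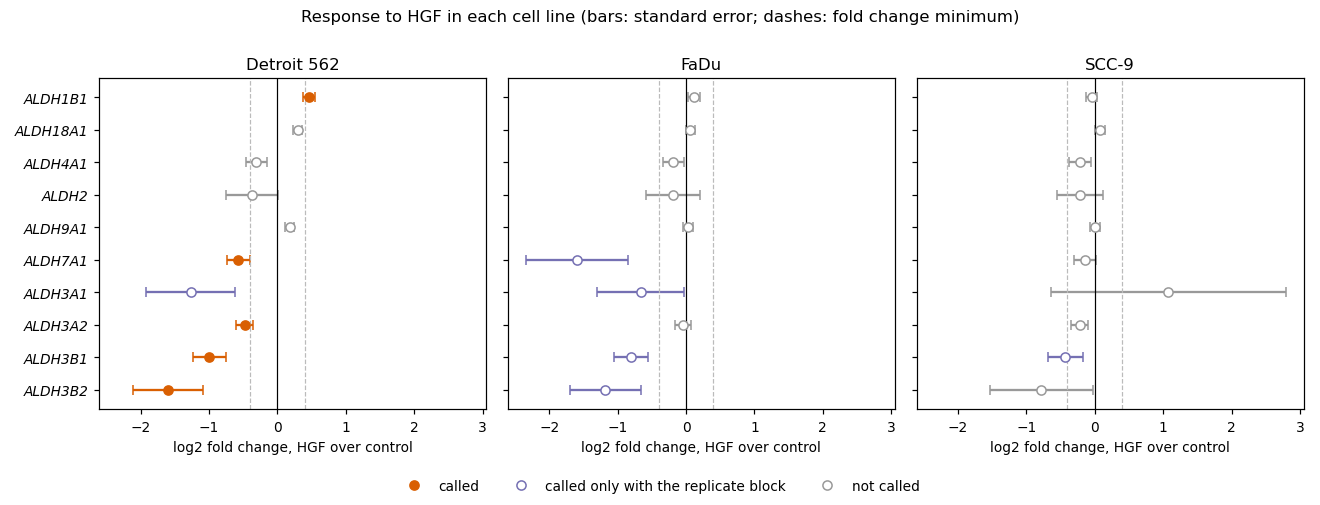
Log2 fold change of HGF over control for each member in each line, with bars for the standard error. Filled orange points were called, open purple points only with a term for the replicate number, and open grey points not at all. In Detroit 562, ALDH1B1 lies at 0.46 and ALDH3B2 at -1.60, and no point is filled in FaDu or SCC-9.

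Promoters of 4 members are shown as the 250 bases before the start site in RefSeq (GRCh38.p14), which gave an entry for 7 of the 10 members and none for ALDH2, ALDH3A1 and ALDH3B2. They are ALDH1B1, called higher in Detroit 562, ALDH18A1, which had the next highest fold change and was not called, and ALDH3A2 and ALDH3B1, both called lower. Capitals mark each CG dinucleotide. Bases that the annotations place within the gene were left off, which shortens ALDH1B1 to 212 bases. The sequences are chr9:38392452-38392663 on the plus strand, chr10:95656712-95656961 on the minus strand, chr17:19647886-19648135 on the plus strand and chr11:68008297-68008546 on the plus strand.
ALDH1B1: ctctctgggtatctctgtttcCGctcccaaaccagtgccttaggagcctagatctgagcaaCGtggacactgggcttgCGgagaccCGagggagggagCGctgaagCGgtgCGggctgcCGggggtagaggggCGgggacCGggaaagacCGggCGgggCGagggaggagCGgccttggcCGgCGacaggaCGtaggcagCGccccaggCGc
ALDH18A1: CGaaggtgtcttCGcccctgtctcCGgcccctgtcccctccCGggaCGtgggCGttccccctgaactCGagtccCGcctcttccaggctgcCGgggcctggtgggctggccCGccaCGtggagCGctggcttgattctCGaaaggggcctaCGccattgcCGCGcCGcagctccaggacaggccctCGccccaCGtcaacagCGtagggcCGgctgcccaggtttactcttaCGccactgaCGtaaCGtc
ALDH3A2: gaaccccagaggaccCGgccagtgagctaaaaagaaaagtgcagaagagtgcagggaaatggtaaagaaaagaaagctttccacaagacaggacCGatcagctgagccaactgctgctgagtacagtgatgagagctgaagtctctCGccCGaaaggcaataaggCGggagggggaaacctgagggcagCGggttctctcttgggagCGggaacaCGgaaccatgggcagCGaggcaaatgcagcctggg
ALDH3B1: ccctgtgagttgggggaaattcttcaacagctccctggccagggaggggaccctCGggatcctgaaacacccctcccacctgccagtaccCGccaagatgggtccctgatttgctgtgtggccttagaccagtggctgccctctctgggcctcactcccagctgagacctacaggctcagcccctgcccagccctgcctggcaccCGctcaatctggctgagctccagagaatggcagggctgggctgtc

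The whole 250 bases held 23 CG dinucleotides in ALDH1B1 and 24 in ALDH18A1, and 9 in ALDH3A2 and 3 in ALDH3B1, beside a median of 11 over 27305 promoters of the same length. Of those promoters, 74.6% and 76.7% held fewer than the first pair and 46.2% and 23.6% fewer than the second. ALDH9A1 held 21, ALDH4A1 19 and ALDH7A1 11. Among the 7 members with an entry, the 3 called lower in Detroit 562 were those with the fewest, although 50.0% of all promoters held fewer than ALDH7A1. ALDH3B2, also called lower, had no entry. The CG dinucleotides were not counted over all genes called lower, and a link with the response to HGF was not tested. The core of the antioxidant response element (TGACNNNGC), the core bound by the aryl hydrocarbon receptor (GCGTG) and the AP-1 site (TGANTCA) were searched on both strands and were in none of the 7 windows. They were in 11%, 31.9% and 6.6% of all promoters. These matches describe the letters in these windows alone.

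In FaDu, no member was called, where 0.0258% of all genes tested were. The lowest fold changes were those of ALDH7A1, ALDH3B2, ALDH3B1 and ALDH3A1. The first 3 of these had an unadjusted p below 0.05, as did 1247 of all genes (8.06%), and DESeq2 called 64 genes and no member. ALDH3B1 had 24.7, 27.1 and 15.9 CPM in control and 11.5, 19.2 and 8.13 CPM with HGF, with overlapping groups and a log2 fold change of -0.80 (SE 0.248, adjusted p = 0.499). ALDH3B2 had 7.24, 8.01 and 2.86 CPM against 2.53, 4.25 and 1.23 CPM (-1.18, SE 0.524, adjusted p = 0.609). ALDH3A1 had 315.5, 292.4 and 108.2 CPM against 174.6, 217.9 and 59.1 CPM (-0.67, SE 0.642, adjusted p = 0.776). The groups overlapped for each of these genes, although every HGF library was below its same-numbered control. This was so for 7 of the 10 members, against 23.3% of all genes tested. Only the ALDH7A1 groups did not overlap, 1 of the 10 members, against 9.41% of all genes. ALDH3B1 was called without FaDu HGF replicate 2, as the 1 member (-1.20, adjusted p = 0.0567).

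The term for the replicate number turned these into calls. With it, 4 members were called lower in FaDu and none higher, where 3.6% of all genes were called lower. ALDH3B2 had a log2 fold change of -1.20 (SE 0.146, adjusted p = 0.00016), ALDH3B1 -0.84 (SE 0.114, adjusted p = 0.000355) and ALDH3A1 -0.71 (SE 0.139, adjusted p = 0.00443). The remaining one was ALDH7A1, at an adjusted p of 0.0283, on 8 counts over the 3 HGF libraries and 25 over the 3 controls. Its normalised ratio of HGF to control was 0.321, with an exact 95% interval of 0.125 to 0.734 that covers counting error only. ALDH3A2, called in Detroit 562, had a log2 fold change of -0.05 in FaDu (SE 0.121, adjusted p = 0.937), and ALDH1B1 had 0.11 (SE 0.0831, adjusted p = 0.703).

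In SCC-9, no member was called, and no other gene among those tested was. None of the 10 had an unadjusted p below 0.05, as 641 of all genes did (4.14%), and DESeq2 called 17 genes and no member. ALDH3B1 had 8.90, 9.48 and 10.7 CPM in control and 6.53, 8.50 and 6.53 CPM with HGF, with all HGF libraries below all controls. This was so for 2 of the 10 members, the other being ALDH4A1, against groups without overlap for 17.4% of all genes tested. Its log2 fold change was -0.43 (SE 0.26, adjusted p = 1.00), and with the replicate term it was the 1 member called (-0.43, SE 0.13, adjusted p = 0.0961), where 1.97% of all genes were called. ALDH2, at its highest in this line, had 36.4, 42.9 and 41.3 CPM in control and 31.9, 37.6 and 34.1 CPM with HGF (-0.22, SE 0.336, adjusted p = 1.00). With the replicate term it had -0.22 (SE 0.0572, adjusted p = 0.0531), under the minimum fold change. ALDH3A1 held 4 to 14 counts in 5 of the 6 libraries and 60 in HGF replicate 3, so that its fitted log2 fold change of 1.08 (SE 1.72) turned to -0.83 without that library. In SCC-9, 5 members were lower in all 3 same-numbered pairs, as were 24.6% of all genes tested. These were ALDH2, ALDH3A2, ALDH3B1, ALDH4A1 and ALDH7A1, which were also lower in all 3 pairs of the other lines. The share of all genes lower in every pair of every line was not counted. Some of these pairs hardly differed, as in FaDu replicate 2, with ratios of HGF to control of 0.997 for ALDH3A2 and 0.999 for ALDH4A1. ALDH7A1 in FaDu rests on 1 to 11 counts per library.

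**Figure D4:**
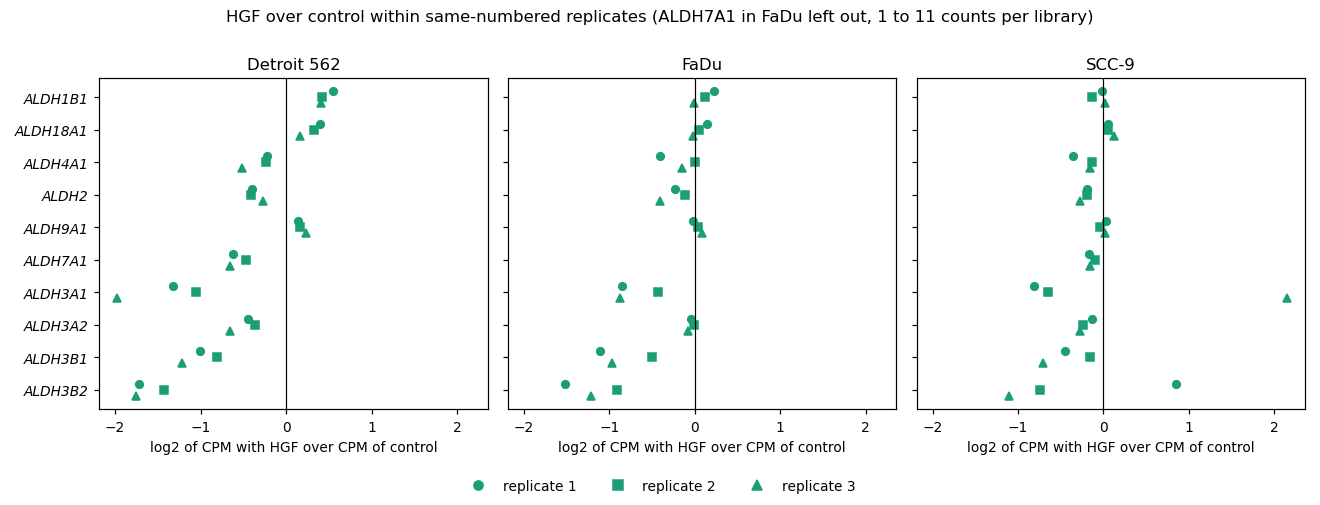
Log2 of the CPM with HGF over the CPM of the same-numbered control for each member and line, with the replicate given by the symbol; ALDH7A1 in FaDu is left out for its low counts. All 3 symbols of ALDH3B1 lie left of 0 in every line, from -1.22 to -0.81 in Detroit 562, and ALDH3A1 in SCC-9 has 1 symbol at 2.15.

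Whether the response to HGF differed between lines was tested as a difference of the log2 fold changes, called at an adjusted p below 0.1 alone. The response of ALDH1B1 was 0.50 higher in Detroit 562 than in SCC-9 (SE 0.123, adjusted p = 0.0978), the 1 member called in that comparison, where 0.924% of all genes were. Detroit 562 had a log2 fold change of 0.46 for this gene, FaDu 0.11 and SCC-9 -0.04. The call was lost when any SCC-9 library, any Detroit 562 library other than control replicate 3, or FaDu control replicate 1 or 3 was left out, 13 of 18 fits in all, with differences of 0.47 to 0.55 and adjusted p of 0.0498 to 0.287 over the 18. No member was called between Detroit 562 and FaDu (0.239% of all genes) or between FaDu and SCC-9 (0% of all genes). Between Detroit 562 and FaDu 3 members had an unadjusted p below 0.05, as did 1788 genes (11.6%). Between FaDu and SCC-9 there were 0 members and 337 genes (2.18%). DESeq2 called no member in either comparison. Thus for ALDH3B1 and ALDH3B2, called in Detroit 562 alone without the replicate term, the Detroit 562 response differed from that in FaDu by -0.19 (SE 0.344) and -0.42 (SE 0.724), which was not called.

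With the replicate term, 4 members differed between Detroit 562 and FaDu (19.1% of all genes) and 8 between Detroit 562 and SCC-9 (26.9%). Against FaDu the response in Detroit 562 was lower for ALDH3A2, with a difference of -0.44 on the log2 scale (SE 0.0742, adjusted p = 0.00217), and for ALDH3A1, with -0.72 (SE 0.196, adjusted p = 0.0284), while those of ALDH1B1 and ALDH18A1 were higher by 0.35 (SE 0.0834, adjusted p = 0.0156) and 0.24 (SE 0.0704, adjusted p = 0.0405). Against SCC-9 the responses of ALDH3A1, ALDH3A2, ALDH3B1, ALDH3B2 and ALDH7A1 were lower and those of ALDH1B1, ALDH9A1 and ALDH18A1 higher. The ALDH1B1 difference, whose call without the term was lost in most fits that left out a library, was 0.51 (SE 0.0864, adjusted p = 0.00131). The ALDH3A1 difference draws on SCC-9 HGF replicate 3, with 60 counts against 4 to 14 in the other SCC-9 libraries. Without that library and without the replicate term it was -0.44 (adjusted p = 0.969), against -2.35 (adjusted p = 0.563) with all libraries. The ALDH7A1 response differed by -0.44 (SE 0.0697, adjusted p = 0.000798). The comparisons share the Detroit 562 libraries. None differed between FaDu and SCC-9 with the term (1.32% of all genes).

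Averaged over the 3 lines, 7 members passed an adjusted p below 0.1, where 28.2% of all genes did. ALDH1B1 (0.18, SE 0.0493, adjusted p = 0.0221) and ALDH18A1 (0.15, SE 0.038, adjusted p = 0.0163) rose. ALDH3B2 (-1.19, SE 0.349, adjusted p = 0.0274), ALDH3B1 (-0.74, SE 0.144, adjusted p = 0.00468), ALDH3A2 (-0.25, SE 0.0702, adjusted p = 0.0232) and ALDH7A1 (-0.77, SE 0.261, adjusted p = 0.0482) fell. The ALDH7A1 value draws on the 1 to 11 counts per library in FaDu, and its call was lost without FaDu control replicate 2 or FaDu HGF replicate 3 (adjusted p = 0.141 and 0.134). That of ALDH3B2 was lost without SCC-9 control replicate 3 (-0.90, adjusted p = 0.112). ALDH4A1 (-0.23, SE 0.0905, adjusted p = 0.0781) was the other member called, and lost its call in 12 of the 18 fits that left out a library, with adjusted p from 0.0371 to 0.161 over all 18. These libraries were Detroit 562 control 1 and 2 and HGF 3, FaDu control 1 and 2 and HGF 1 and 3, and SCC-9 control 1, 2 and 3 and HGF 1 and 3. With the replicate term 9 members passed (49.2% of all genes), with ALDH2 (-0.27, SE 0.045, adjusted p = 0.000286) and ALDH9A1 (0.07, SE 0.0256, adjusted p = 0.0379) added. Without the term, ALDH9A1 passed when SCC-9 HGF replicate 2 was left out (0.10, adjusted p = 0.0865).

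The members were also compared with each other over the 18 libraries, as log2 CPM centred within each line. These correlations are descriptions, since the points share the libraries, the HGF treatment and the replicate numbers. Some points rest on few counts per library. These are ALDH7A1 in FaDu (1 to 11) and, in SCC-9, ALDH3A1 (4 to 60) and ALDH3B2 (5 to 56). ALDH2, ALDH4A1, ALDH7A1 and the 4 ALDH3 genes had positive coefficients throughout, with 0.84 for ALDH3B1 with ALDH4A1 as well as with ALDH7A1, and 0.81 for ALDH3B1 with ALDH3B2. ALDH1B1, ALDH18A1 and ALDH9A1 formed the other set, with 0.82 between ALDH1B1 and ALDH18A1. ALDH1B1 and ALDH3B1 had the lowest coefficient, -0.69. Of the 45 pairs of members, 20 had a coefficient of at least 0.6 and 2 of -0.6 or less.

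**Figure D5:**
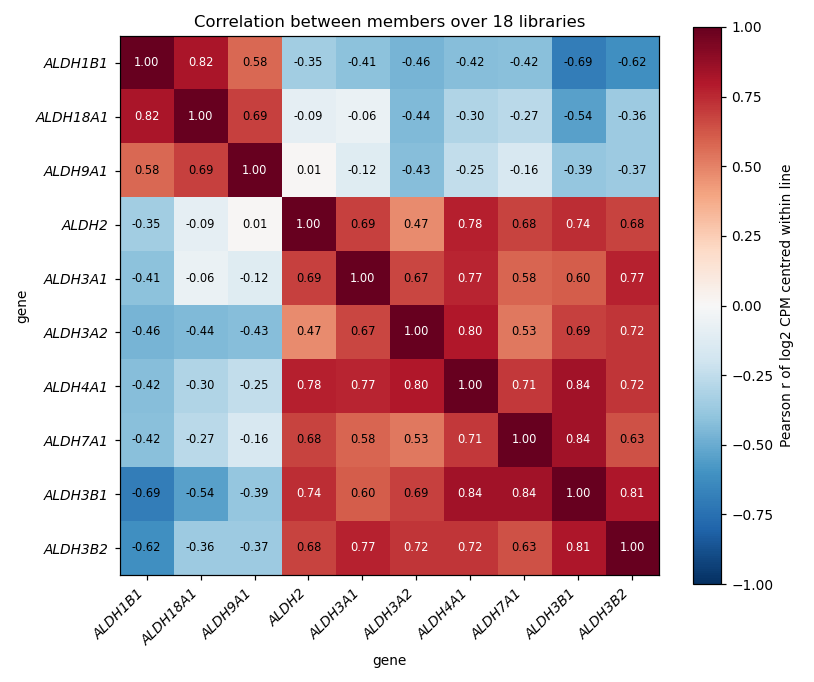
Pearson correlation between members over 18 libraries, after centring log2 CPM within each line; red is positive and blue negative. ALDH1B1, ALDH18A1 and ALDH9A1 are red with each other and mostly blue with the other 7, for example 0.82 for ALDH1B1 with ALDH18A1 and -0.69 for ALDH1B1 with ALDH3B1.

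For each member called in Detroit 562, the 3 genes with the most similar centred log2 CPM over the same 18 libraries were taken. For ALDH3B1 these were ICK, VPS39 and GABARAPL1 (r = 0.97, 0.97 and 0.963), and for ALDH3B2 they were EPHB3, REEP6 and MYH14 (0.964, 0.941 and 0.933). HAUS4, KLHL13 and WNT10A were nearest to ALDH3A2 (0.931, 0.926 and 0.921), and MFAP2, SMPDL3B and POLR3GL to ALDH7A1 (0.916, 0.913 and 0.904). The FaDu points of ALDH7A1 rest on 1 to 11 counts per library and the SCC-9 points of ALDH3B2 on 5 to 56. C9orf78, RNMTL1 and EIF5A, a translation factor, were nearest to ALDH1B1 (0.957, 0.957 and 0.95). Without centring the differences between lines dominate, and SHMT1, RARG and C21orf33 were nearest to ALDH3A2 (0.991, 0.986 and 0.983). VPS39 was among the nearest 3 of ALDH3B1 by both measures, as were REEP6 and MYH14 for ALDH3B2.

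Other genes of the same pathways were counted in Detroit 562 in the same way. The lists were set with earlier results known, so their counts are descriptions, to be read against the 11.7% of all genes called lower and the 6.16% called higher. Of 8 further aldehyde dehydrogenases tested, 5 fell, 0 rose and 3 were not called, with a median log2 fold change of -0.57. ALDH1A1, which oxidizes retinaldehyde, fell by 1.71 (SE 0.428, adjusted p = 0.00982), and ALDH6A1, of valine breakdown, by 1.11 (SE 0.261, adjusted p = 0.00702). The others were ALDH1A3, ALDH1L1 and ALDH5A1. Of 11 genes tested from alcohol and aldehyde turnover, 6 fell and 0 rose, with a median of -0.44. ADH1C, an alcohol dehydrogenase, fell from 15.2 to 55.3 CPM in the controls to 1.52 to 6.61 CPM (-3.26, SE 0.465, adjusted p = 0.000543). The ADH1B row overlaps 98.4% of ADH1C on the same strand and held nearly the same counts, so these rows are 1 measurement. Both rows are nevertheless included in the count and the median of this list. ADH7 had 21 to 74 counts per control library and 0 to 5 with HGF. AKR1B10, an aldo-keto reductase, fell by 1.85 (SE 0.572, adjusted p = 0.0272), and catalase (CAT) by 0.44 (SE 0.112, adjusted p = 0.0105).

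Genes of the proline pathway were called in both directions. PRODH, which oxidizes proline to pyrroline-5-carboxylate, fell from 9.05 to 22.8 CPM in the Detroit 562 controls to 1.31 to 3.41 CPM (-2.77, SE 0.42, adjusted p = 0.000821). ARG2, an arginase, rose by 0.58 (SE 0.143, adjusted p = 0.00898). Of 9 genes of lysine, choline and carnitine metabolism 1 fell, AASS, the first enzyme of lysine breakdown, with -0.48 (SE 0.179, adjusted p = 0.0593), and the median was -0.19. Of 7 genes of fatty aldehydes and sphingolipid breakdown 2 rose, SPHK1 (1.29, SE 0.322, adjusted p = 0.00952) and FAR2, a fatty acyl-CoA reductase (0.62, SE 0.131, adjusted p = 0.00405), with a median of -0.07. Of 10 target enzymes of NRF2 and AHR, GCLC (-1.11, SE 0.276, adjusted p = 0.00944) and CYP1B1 (-0.97, SE 0.242, adjusted p = 0.00948) fell and TIPARP (0.57, SE 0.222, adjusted p = 0.0695) rose, with a median of -0.30. In FaDu and SCC-9 none of the genes of these lists was called without the replicate term. With it, in FaDu, 4 of the 10 target enzymes of NRF2 and AHR, 3 of the 8 further aldehyde dehydrogenases and 3 of the 11 genes of alcohol and aldehyde turnover were called lower, where 3.6% of all genes were, and none of these higher. Of the 7 fatty aldehyde and sphingolipid genes 1 was called higher in FaDu, where 2% of all genes were, and of the 9 lysine, choline and carnitine genes 0 were called. In SCC-9, 2 of the 10 target enzymes of NRF2 and AHR were called lower with the term (1.41% of all genes), and no gene of the other lists given here was called.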

How the data were processed

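RNA-seq counts per gene were taken as deposited by the authors for 18 libraries, 3 in each of 6 groups of line and treatment. Per the study's methods and the submitters' processing notes, poly(A) RNA was sequenced single-end and stranded, reads were trimmed with cutadapt 1.16 and aligned with STAR 2.5.2b to GRCh38.p12, and same-strand reads were counted over whole genes with bedtools. The authors' own comparisons were made with DESeq2 1.22.1.

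Counts were normalised by TMM and tested with the quasi-likelihood test of edgeR 4.0.16 (R 4.3.3) over 15475 genes that passed its filter on low counts, with 6 group means, all 18 libraries and Benjamini-Hochberg adjustment. Calls needed an adjusted p under 0.1 and a log2 fold change of 0.4 or more in size. Differences between responses and the mean of the lines used the adjusted p alone. Log2 CPM for correlations had a prior count of 2. The pipeline was tested on simulated counts. These held no effect shared by replicate number, so that test does not cover calls that change with the replicate term. Depth was 35304770 to 44003970 counts per library, and intervals cover counting error only.

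Replicate numbers come from the labels. The mean correlation of deviations from group means between different numbers was -0.227 to -0.136. Its sign follows largely from centring each group on its own mean, so it is no separate support for pairing. Between same-numbered control and HGF libraries these deviations correlated by 0.161 to 0.563, above 0.1 in each of the 9 pairs. The numbers therefore pair the samples, and the test with a term for the number is given where it changes a call. The study repeated its experiment to obtain the replicates, and p-values measure the spread between these libraries.

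The members, the gene lists and the rules were chosen with earlier results of these data known. All 10 members are named, other genes where called in Detroit 562, and the 3 nearest genes by correlation for each member called there. The count over the list of proline genes is not reported here. Alternatives were DESeq2 1.42.0, its size factors, other filters, a fit of 1 line, other gene lengths, the replicate term and leaving out each library.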

Additional observations from a re-analysis of the deposited data

Results flagged for a closer look

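The response of ALDH1B1 to HGF differed between Detroit 562 and SCC-9 by 0.505 on the log2 scale in edgeR's quasi-likelihood test (adjusted p = 0.0978), higher in 3 of 3 pairs in Detroit 562 and in 1 of 3 in SCC-9. It was looked at again because the difference itself passed the test. Its fate when libraries were left out is given above, and medium and line cannot be told apart between these lines.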

How the results depend on the processing

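With the replicate term, 4 members were called in FaDu and 1 in SCC-9, as described above. Between responses, 4 were called for Detroit 562 against FaDu and 8 for Detroit 562 against SCC-9. ALDH3A1 in Detroit 562 was added. ALDH2 between untreated Detroit 562 and FaDu also passed, where the term takes the spread between cultures of a line out of the error. Apart from ALDH2 and ALDH9A1 in the mean of the lines, the term changed no other call of a member. DESeq2 with the term called 3 members in FaDu and 1 in SCC-9. For the responses it called 3 between Detroit 562 and FaDu and 7 between Detroit 562 and SCC-9. The 1 call between Detroit 562 and SCC-9, ALDH1B1, became 0 with DESeq2 size factors and 0 without a filter. With replicates 1 and 2 alone 1 member was called in FaDu and 2 between Detroit 562 and SCC-9. Leaving out 1 library gave 2 to 6 calls in Detroit 562, 0 to 1 in FaDu and 0 to 1 between Detroit 562 and SCC-9. The share of all genes called is not given for DESeq2 with the term, replicates 1 and 2 alone or the fits without 1 library. Their counts are therefore no result about the members. The cause of the changes in these calls was not tested. The fits on replicates 1 and 2, DESeq2 with the replicate term and the canonical length were chosen after seeing the data.

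Among all comparisons 55 values turned their direction, none of them called in the test as reported. With replicates 1 and 2 alone these were ALDH3A1 (-0.687) and ALDH9A1 (-0.005) in SCC-9, the response in Detroit 562 minus SCC-9 for ALDH4A1 (0.021), the response in FaDu minus SCC-9 for ALDH3A1 (0.069) and ALDH18A1 (0.063), and untreated Detroit 562 minus SCC-9 for ALDH7A1 (0.008). Untreated Detroit 562 minus FaDu for ALDH4A1 was 0.008 with DESeq2 size factors, 0.002 without a filter and 0.010 in DESeq2. Over the fits without 1 library, log2 fold changes with HGF in FaDu ran from -0.714 to 0.235 for ALDH2, -0.136 to 0.047 for ALDH3A2, -0.003 to 0.057 for ALDH9A1 and -0.004 to 0.125 for ALDH18A1. In SCC-9 they ran from -0.826 to 1.584 for ALDH3A1, -1.289 to 0.054 for ALDH3B2 and -0.052 to 0.066 for ALDH9A1. Differences of response between Detroit 562 and FaDu ran from -0.603 to 0.347 for ALDH2, -0.443 to 0.207 for ALDH3B1, -0.772 to 0.077 for ALDH3B2 and -0.260 to 0.041 for ALDH4A1. Between Detroit 562 and SCC-9 they ran from -0.387 to 0.053 for ALDH2 and -0.234 to 0.067 for ALDH4A1. Between FaDu and SCC-9 they ran from -0.496 to 0.454 for ALDH2, -2.237 to 0.173 for ALDH3A1, -1.220 to 0.122 for ALDH3B2, -0.089 to 0.145 for ALDH4A1, -0.026 to 0.092 for ALDH9A1 and -0.081 to 0.047 for ALDH18A1. Untreated, ALDH4A1 ran from -0.116 to 0.119 between Detroit 562 and FaDu and ALDH7A1 from -0.240 to 0.060 between Detroit 562 and SCC-9. Counts of 1 to 60 per library limit ALDH7A1 in FaDu and ALDH3A1 and ALDH3B2 in SCC-9.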
